A study of Arabidopsis thaliana with 4 samples.

Results

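PDF1.2 (AT5G44420) and PDF1.2b (AT2G26020) encode plant defensins, and each was read by 1 probe set whose only annotated gene it is. These 2 genes were taken by name from the 13356 genes that have a probe set of their own, and the probe sets are 249052_at for PDF1.2 and 257365_x_at for PDF1.2b. Expression was measured on 4 Affymetrix Arabidopsis arrays, each hybridised with RNA from whole Arabidopsis thaliana seedlings of accession Col-0, 10 days old. The compared groups were OsRR6ox, a transgenic line that over-expresses the rice gene OsRR6 (2 biological replicates), and the wild type (2 biological replicates). OsRR6 is a type-A response regulator, a class of small proteins that act in cytokinin signalling. All seedlings were grown on half-strength MS medium under a long-day light cycle without any further treatment. The design text speaks of a single over-expression line, and its transgene promoter is not stated in the labels. Whether the replicates were grown separately is not stated, so p-values cover only how far these samples varied, which may be technical.

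Plant defensins are small secreted peptides, held together by disulphide bridges, that act against fungi. PDF1.2 is a widely used marker of the branch of the defence response that jasmonate and ethylene switch on together. In that branch the ethylene-linked factors EIN3 and EIL1 and the AP2/ERF factors ERF1 and ORA59 act upstream of PDF1.2. A second jasmonate branch, run by the MYC factors MYC2, MYC3 and MYC4, serves the wound response and counteracts the first, and salicylic acid signalling is known to hold PDF1.2 down.

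PDF1.2 and PDF1.2b read higher in each OsRR6ox array than in either wild type array, but neither difference passed the test over all probe sets. Values are log2 expression as deposited. PDF1.2 read 7.24 in OsRR6ox replicate 1 and 6.10 in OsRR6ox replicate 2, against 5.14 and 5.19 in the wild type replicates. The groups did not overlap, and the wild type arrays lay close together while the OsRR6ox arrays lay far apart. The means were 6.67 ± 0.81 in OsRR6ox and 5.17 ± 0.04 in the wild type (SD, n = 2 each). The difference was 1.50 on the log2 scale with a standard error of 0.38, or 2.83-fold, and its 95% interval ran from 0.54 to 2.46. The limma moderated test gave an unadjusted p of 0.00968 and a Benjamini-Hochberg adjusted p of 0.165 over 22746 probe sets.

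PDF1.2b read 7.61 in OsRR6ox replicate 1 and 6.71 in OsRR6ox replicate 2, against 6.40 and 6.60 in the wild type replicates. The lower OsRR6ox array exceeded the higher wild type array by 0.10, so the groups barely separated. The means were 7.16 ± 0.64 in OsRR6ox and 6.50 ± 0.14 in the wild type (SD, n = 2 each). The difference was 0.66 with a standard error of 0.31, or 1.57-fold, and its 95% interval, -0.14 to 1.45, took in 0. The limma test gave an unadjusted p of 0.0871 and an adjusted p of 0.413. An exact permutation test over the arrays (two-sided) gave p = 0.333 for each gene, the smallest value that 2 arrays against 2 allow.

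**Figure D1:**
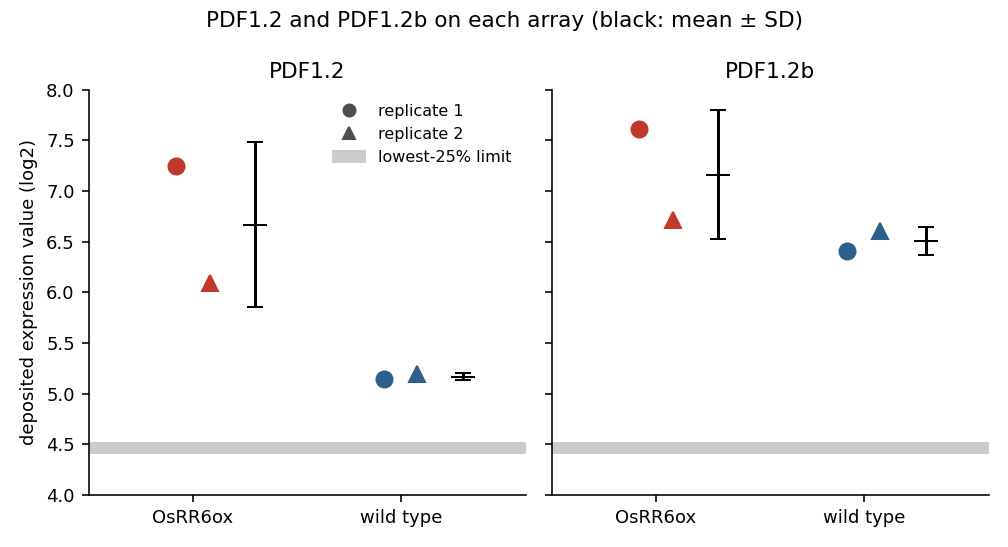
Deposited log2 values (vertical axis) of PDF1.2 and PDF1.2b on each OsRR6ox and wild type array, with circles for replicate 1, triangles for replicate 2, and black marks for the mean ± SD of 2 arrays. OsRR6ox replicate 1 is the highest array for both genes, and the grey band is the limit of the lowest 25% of probe sets on the 4 arrays.

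Of all probe sets tested, 1.3% passed the threshold, 0.813% as higher in OsRR6ox, while 15.0% had an unadjusted p under 0.05. Arrays of the genotypes did not overlap for 46.1% of probe sets, 18.1% with OsRR6ox higher, so that separation is a common feature of these arrays. The PDF1.2 difference was larger than that of 99.3% of probe sets, and the PDF1.2b difference larger than that of 96.5%. By p-value, PDF1.2 stood at rank 1337 and PDF1.2b at rank 4801.

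Both differences were larger with OsRR6ox replicate 1 than without it. PDF1.2 was 1.15 higher in OsRR6ox replicate 1 than in OsRR6ox replicate 2, a gap wider than that of 99.4% of probe sets, and PDF1.2b was 0.90 higher, wider than 98.6%. Between the wild type replicates the same gaps were -0.05 and -0.20. Of all probe sets, 56.3% read higher in OsRR6ox replicate 1 than in replicate 2. Set against the wild type mean, PDF1.2 was 4.21-fold higher in OsRR6ox replicate 1 and 1.90-fold higher in OsRR6ox replicate 2. For PDF1.2b the same ratios were 2.15-fold and 1.15-fold. Without OsRR6ox replicate 1 the PDF1.2 difference was 0.93 (limma adjusted p = 0.231) and the PDF1.2b difference 0.20 (limma adjusted p = 0.792). Without OsRR6ox replicate 2 they were 2.07 (limma adjusted p = 0.0641) and 1.11 (limma adjusted p = 0.231).

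**Figure D2:**
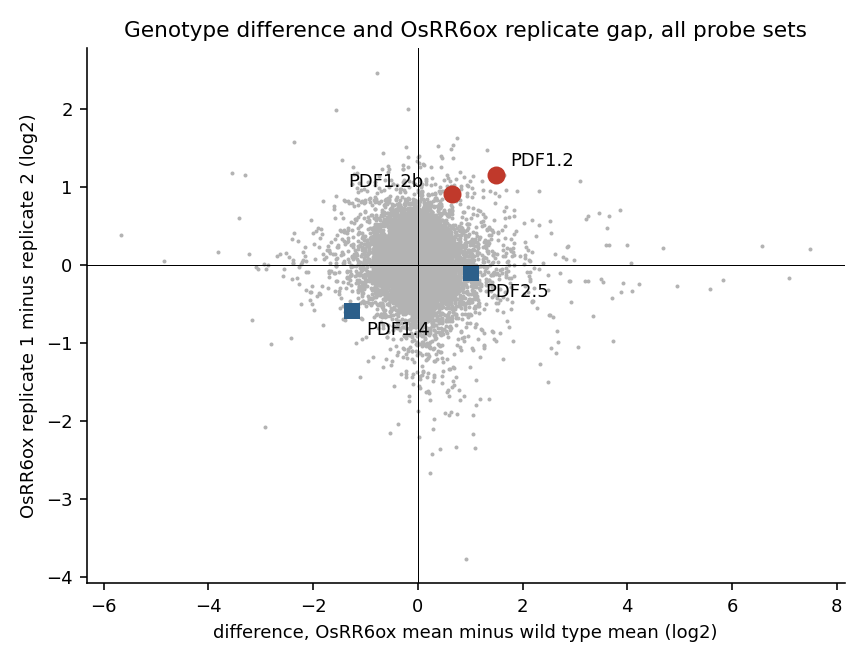
Each grey point is a probe set, with the OsRR6ox minus wild type difference (log2) on the horizontal axis and the gap between OsRR6ox replicates 1 and 2 (log2) on the vertical axis. PDF1.2 lies at 1.50 and 1.15 and PDF1.2b at 0.66 and 0.90, both at the upper edge of the cloud, whereas PDF2.5 and PDF1.4 lie near or below 0 on the vertical axis.

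The scale of the arrays bears on both calls. When each array was centred on its 42 bacterial spike-in controls, the median of all probe sets moved to 0.49, against -0.04 as deposited. PDF1.2 then differed by 2.03 (limma adjusted p = 6.92e-10) and PDF1.2b by 1.18 (limma adjusted p = 0.00148), both past the threshold. All probe sets shared a single variance in that fit, which called 3013 of them, 12.6% of all probe sets as higher in OsRR6ox, and the spike-in means were 8.45 and 8.43 in OsRR6ox and 8.80 and 9.13 in the wild type. The wild type level of PDF1.2 was low, at 0.65 and 0.68 above the limit of the lowest 25% of probe sets on the same array, taken here as array background. PDF1.2b stood 1.91 and 2.09 above that limit in the wild type.

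**Figure D3:**
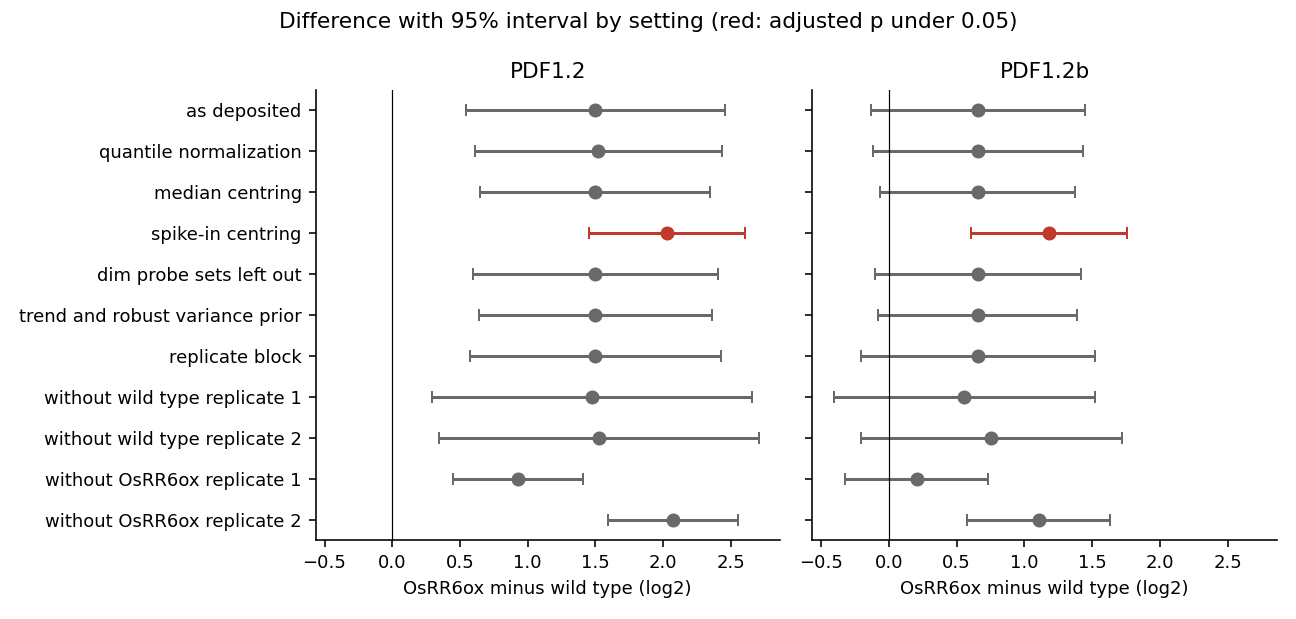
OsRR6ox minus wild type difference (log2, horizontal axis) with its 95% interval for PDF1.2 and PDF1.2b under each setting of the analysis, listed down the page. Spike-in centring is the only setting drawn in red (adjusted p under 0.05), and leaving out OsRR6ox replicate 1 gives the smallest differences, 0.93 and 0.20.

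Within each array the PDF1.2 value less the PDF1.2b value was -0.37 and -0.61 in OsRR6ox, against -1.26 and -1.41 in the wild type. This quantity is free of any shift of a whole array, and its groups did not overlap. PDF1.2 thus differed between genotypes by 0.85 more than PDF1.2b did, with an exact two-sided permutation p of 0.333, again the smallest possible. Without OsRR6ox replicate 1 the figure was 0.72, and without OsRR6ox replicate 2 it was 0.97. Probe sets with the x in their name hold probes that can also match other transcripts. PDF1.2, PDF1.2b, PDF1.2c and PDF1.3 are close copies, so how the signal of 257365_x_at divides among them is uncertain. PDF1.2c, the next gene after PDF1.2 on the chromosome, and PDF1.3, the gene before PDF1.2b, have no probe set with a single gene name here and were not analysed.

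Of 14 plant defensin genes listed by locus, 11 were measured, and 0 passed the limma threshold in either direction. An unadjusted p under 0.05 was found for 3, PDF1.2 itself, PDF1.4 and PDF2.5. Over all probe sets 1.3% passed and 15.0% had an unadjusted p under 0.05. The median difference over the 11 was -0.03, near the -0.04 of all probe sets, and over the 9 other than PDF1.2 and PDF1.2b it was -0.17. PDF1.4, of the same subfamily, differed in the opposite direction. It read 6.33 and 6.93 in OsRR6ox, against 7.97 and 7.81 in the wild type, without overlap, a difference of -1.26 (limma adjusted p = 0.0880), and of -0.73 after spike-in centring. OsRR6ox replicate 1 was the lower OsRR6ox array for this gene. PDF2.5 read 9.23 and 9.34 in OsRR6ox, against 8.55 and 8.00 in the wild type, a difference of 1.01 (limma adjusted p = 0.117). Here the OsRR6ox arrays were close to each other, unlike those of PDF1.2. PDF2.5 passed when wild type replicate 1 was left out (limma adjusted p = 0.0441) and after spike-in centring (limma adjusted p = 9.06e-06).

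The defensin gene PDF2.1 overlapped between genotypes, at 6.20 and 7.35 in OsRR6ox and 7.03 and 6.97 in the wild type. Its OsRR6ox replicates stood in the reverse order to those of PDF1.2. LCR69 and LCR68 also overlapped and differed by 0.06 and -0.38. LCR67, which is PDF1.1, LCR66, LCR72 and LCR80 lay at array background on all 4 arrays, so their differences of -0.03, -0.02, -0.29 and -0.17 carry little information. The arrays of LCR72 and LCR80 did not overlap, with OsRR6ox lower. As deposited 4 of the 11 defensins had a higher mean in OsRR6ox, and after spike-in centring 10 did, all but PDF1.4. Over all probe sets those shares were 42.3% as deposited and 94.5% after spike-in centring.

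**Figure D4:**
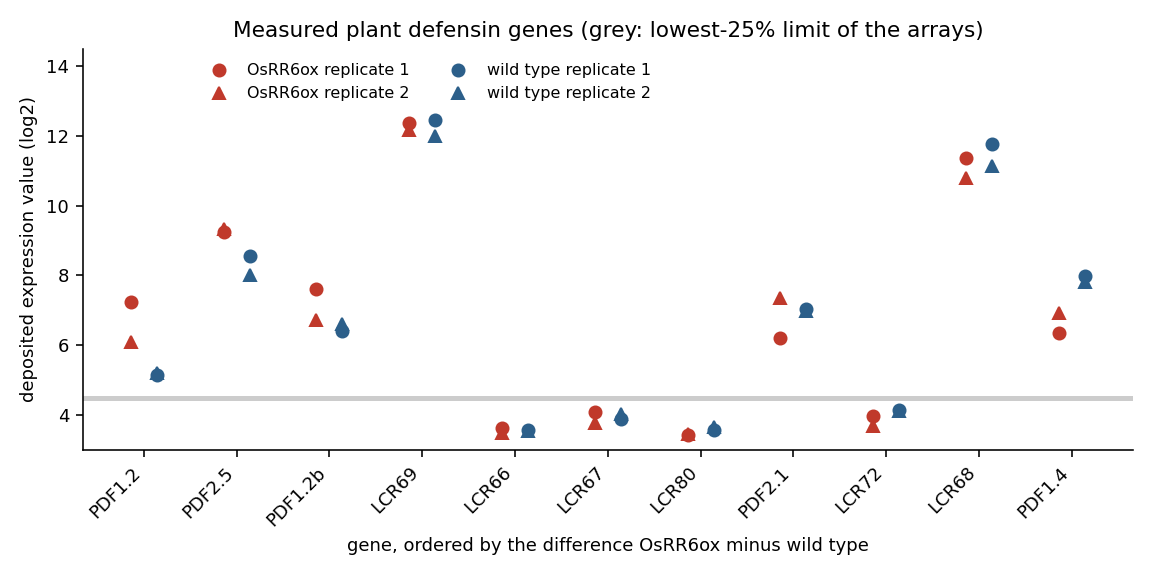
Deposited log2 values of the 11 measured plant defensin genes on each array, ordered from the highest to the lowest OsRR6ox minus wild type difference. PDF1.2, PDF2.5 and PDF1.2b, at the left, have both OsRR6ox arrays above both wild type arrays, and PDF1.4, at the right, has both below. LCR72 and LCR80, among the 4 genes under the grey band of array background, also have both below. Over all probe sets the arrays did not overlap for 46.1%, 18.1% with OsRR6ox higher.

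The hormone pathways around PDF1.2 were thinly covered. Measured under a single gene name were 2 of 16 jasmonate synthesis genes, 4 of 8 jasmonate breakdown genes, 2 of 13 genes of the MYC branch, 1 of 10 ethylene signalling genes, 2 of 4 other outputs of the ERF branch and 3 of 22 salicylic acid and defence genes. The lists of jasmonate perception and repressors (15 genes), of ERF-branch regulators (11) and of camalexin and indole metabolism (6) had 0 members under a single gene name. The annotation leaves 8730 tested probe sets unnamed, so genes missing here may still have been on the arrays. None of the 14 genes measured in these lists passed the limma threshold in either direction, against 1.3% of all probe sets. An unadjusted p under 0.05 was found for 2 of them, OPCL1 and DGL, against 15.0% of all probe sets. After spike-in centring 4 of the 14 passed as higher, AT5G05600, JRG21, AT2G38240 and OPCL1 (limma adjusted p = 0.0135, 0.00195, 0.00733 and 0.0293), and 12 of the 14 had a higher mean in OsRR6ox, against 8 as deposited. In that fit 12.6% of all probe sets passed as higher and 94.5% had a higher mean in OsRR6ox. This covers too few genes to describe the state of either hormone pathway.

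In jasmonate synthesis OPCL1, a CoA ligase that activates precursors for beta-oxidation, read 7.89 and 8.07 in OsRR6ox, against 7.61 and 7.67 in the wild type. It did not overlap and differed by 0.35 (limma adjusted p = 0.323), with OsRR6ox replicate 1 below replicate 2. The lipase gene DGL, at array background on all arrays, differed by -0.33 (limma adjusted p = 0.306). EIN3, the ethylene factor upstream of ERF1, read 9.98 and 9.94 in OsRR6ox, against 9.86 and 9.71 in the wild type, a difference of 0.18 (limma adjusted p = 0.595).

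In the list of jasmonate breakdown the median difference over 4 genes was 0.48, against -0.04 for all probe sets. It was 0.05 without OsRR6ox replicate 1, -0.10 without wild type replicate 2 and 0.86 without OsRR6ox replicate 2. AT2G38240 showed an array pattern like that of PDF1.2b, with 7.02 and 5.93 in OsRR6ox and 5.90 and 6.03 in the wild type, OsRR6ox replicate 1 standing alone. It and JRG21 were chosen for mention after their values were seen, and the groups of both overlapped. JRG21, annotated as a jasmonate-regulated gene, read 6.74 and 5.73 in OsRR6ox, against 6.65 and 4.57 in the wild type, so that its wild type arrays were further apart than its OsRR6ox arrays. AT3G11180 lay at background on all arrays and differed by -0.32 (limma adjusted p = 0.359), and AT5G05600 differed by 0.44 (limma adjusted p = 0.466).

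The thionin gene THI2.1, another output of jasmonate signalling, read 5.25 and 4.71 in OsRR6ox, against 6.15 and 4.32 in the wild type. Its groups overlapped, with the highest and the lowest value both in the wild type, and it differed by -0.25 (limma adjusted p = 0.903). THI2.2 differed by 0.11 (limma adjusted p = 0.834). The MYC factors MYC3 and MYC4, regulators of the other jasmonate branch, overlapped between genotypes and differed by 0.11 and -0.02.

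Among salicylic acid genes WRKY53, a senescence and defence WRKY factor, differed by -0.64 (limma adjusted p = 0.350), with arrays that did not overlap. GRX480, a glutaredoxin known to repress PDF1.2 when over-expressed, read 5.97 and 5.38 in OsRR6ox, against 6.74 and 5.93 in the wild type. Its arrays overlapped and its difference was -0.66 (limma adjusted p = 0.440). SAG101, a partner of EDS1, differed by 0.14.

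**Figure D5:**
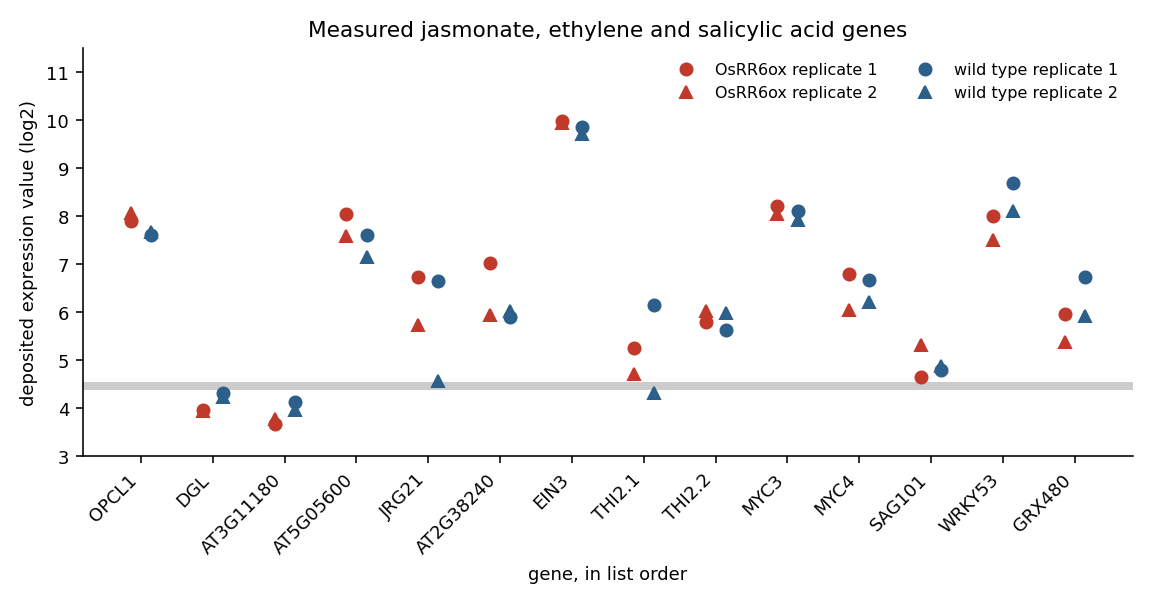
Deposited log2 values of the 14 measured jasmonate, ethylene and salicylic acid genes on each OsRR6ox and wild type array, in list order, with the grey band as array background. Arrays of OPCL1, DGL, AT3G11180, EIN3 and WRKY53 do not overlap between genotypes, as for 46.1% of all probe sets. AT2G38240 has OsRR6ox replicate 1 at 7.02 above the other 3 arrays.

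Profiles were compared among 1579 other probe sets with 1 gene and a symbol that is not a locus code. Among these the array profile most like that of PDF1.2 was that of QQS. Likeness was the root-mean-square distance between the log2 values over the 4 arrays, each gene set to its own mean. QQS, a gene known for its effect on starch content, was at a distance of 0.23 and read 5.84 and 5.15 in OsRR6ox, against 4.23 and 4.38 in the wild type, the wild type values at array background. The cytochrome P450 gene CYP71B26 followed at 0.27, then the peroxidase gene Prx37 at 0.38, the cold-regulated gene COR15B at 0.41 and FHL, a phytochrome A import factor, at 0.41. FHL alone of these passed the threshold (limma adjusted p = 0.0186), as did 1.3% of all probe sets. It read 5.41 and 5.41 in OsRR6ox, without the replicate gap of PDF1.2, against 4.09 and 3.97 in the wild type, both at array background. PDF1.2b stood at rank 9 for PDF1.2, at 0.43, and PDF1.2 at rank 361 for PDF1.2b. Among the genes compared, PDF1.2b lay nearest to ICL, the isocitrate lyase gene of the glyoxylate cycle, at 0.11. ICL read 6.58 and 5.63 in OsRR6ox, against 5.48 and 5.81 in the wild type. Genes named only by a locus code were left out, among them AT2G38240, whose array pattern was like that of PDF1.2b. A nearer profile may therefore lie outside the genes compared. After ICL came iqd33 at 0.17, the glycosyltransferase gene UGT85A4 at 0.19, the RecQ helicase gene RECQI1 at 0.19 and the glutathione transferase gene GSTU20 at 0.21. These profiles cover 4 arrays and are given as a description.

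None of the measured neighbours of PDF1.2 or PDF1.2b passed the limma threshold, against 1.3% of all probe sets. The unadjusted limma p was under 0.05 for 1, AT5G44440 (0.0216), and for 15.0% of all probe sets. Within 3 genes on either side of PDF1.2, 5 of 6 were measured, with differences from -0.51 at AT5G44440, which lay at background on all arrays, to 0.41 at AT5G44400. AT5G44410, the gene directly before PDF1.2, read 5.53 and 5.18 in OsRR6ox, against 5.45 and 5.86 in the wild type, and overlapped. Around PDF1.2b 2 of 6 were measured, AT2G25990 and AT2G26050, both at background, with differences of -0.30 and -0.34. Arrays did not overlap for AT5G44440, AT2G25990 and AT2G26050, with OsRR6ox lower, and for AT5G44450, with OsRR6ox higher. Over all probe sets they did not overlap for 46.1%.

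In whole seedlings a change in the share of a cell type and a change of RNA per cell cannot be told apart. The labels state whole seedlings, and the measured leaf and root markers lay above background on all arrays. The summed level (log2) of 2 leaf markers was 14.27 and 14.54 in OsRR6ox, against 14.47 and 14.65 in the wild type, with RCA differing by -0.38 and LHCB4.1 by 0.17. That of 4 root markers was 12.87 and 13.00 in OsRR6ox, against 13.05 and 13.07 in the wild type. The sum was taken before the log2 step, so it mostly followed PYK10, by far the highest of them. PYK10 alone read 12.71 and 12.84 in OsRR6ox, against 12.96 and 13.00 in the wild type. The median difference over the 4 root markers was 0.46. Of the root markers EXPA7, a root hair expansin, rose by 1.39 (limma adjusted p = 0.0392). It no longer passed with the replicate block (limma adjusted p = 0.0966) or without OsRR6ox replicate 1 (0.128), OsRR6ox replicate 2 (0.200) or wild type replicate 2 (0.0565). EXPA18 differed by 1.11, and PYK10 and NAI1 differed by -0.21 and -0.19. The summed level of 2 seed markers was 6.18 and 5.84 in OsRR6ox, against 6.62 and 6.38 in the wild type, with LEA4-5 differing by -0.81 (limma adjusted p = 0.162) and OLEO3 by -0.22. Of the stomatal lineage markers SPCH and FMA lay above background on all arrays and differed by 0.04 and 0.02, while MUTE lay at background throughout. The meristem markers CLV3 and UFO and the anther markers SPL and AMS lay at background on all arrays, and LAS on all but 1 wild type array. The part of organ proportions in the PDF1.2 and PDF1.2b differences was not tested.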

How the data were processed

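The table the authors deposited holds log2 values for 22810 probe sets on 4 arrays. Per the submitters' processing notes R 3.4.0 was used. The background correction, summarisation and normalization were not stated in any source read here. RNA was extracted with Trizol and labelled by the Affymetrix 3′ IVT method, per the labels' protocols. After 64 array controls were removed, 22746 probe sets were compared between genotypes by a moderated two-sided test (lmFit, then eBayes, in limma 3.58.1 under R 4.3.3), adjusted by Benjamini-Hochberg over all of them, with a threshold of 0.05. The script was tested on simulated data. The platform annotation names 1 gene on 13513 probe sets, more than 1 on 503, and leaves 8730 unnamed. Among those with 1 gene, 13436 matched the TAIR10.1 reference table by gene identifier. No genome build applies to the deposited values, so no coordinates are printed, and promoter motifs were not analysed here.

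The members, gene lists and tests were chosen with earlier results of these data known. Genes are named as members, defensins, neighbours on the chromosome, nearest profiles, or the members of each hormone list with the smallest p, and the remaining measured list members and organ markers are given too. Array medians lay between 6.71 and 6.81, and Pearson's r across probe sets, which are not independent, was 0.989 to 0.992 within genotypes and 0.976 to 0.980 between them. The number of arrays limits the precision. Alternatives were quantile normalization, median and spike-in centring, leaving out dim probe sets, another variance prior, the replicate number as a block, a threshold of 0.10 and leaving out each array.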

Additional observations from a re-analysis of the deposited data

How the results depend on the processing

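PDF1.2 was higher in OsRR6ox under all 11 alternatives, by 0.93 to 2.07, and PDF1.2b under all 11, by 0.20 to 1.18. The extremes of PDF1.2 came from leaving out each OsRR6ox array. Neither gene passed the limma threshold except after spike-in centring, where PDF1.2 differed by 2.03 and PDF1.2b by 1.18. Elsewhere the lowest limma adjusted p was 0.0641 for PDF1.2 and 0.231 for PDF1.2b. The number of probe sets past the threshold, 296 as deposited, was 492 after median centring, 3013 after spike-in centring, 105 with the replicate block, 673 at a threshold of 0.10, and 45 to 465 when an array was left out. With the replicate block PDF1.2 had a limma adjusted p of 0.177 and PDF1.2b of 0.398, and no call on either changed. The same-numbered arrays deviated together with a correlation of 0.26 across probe sets, but 2 pairs do not establish a pairing. The excess of the PDF1.2 difference over that of PDF1.2b was 0.72 to 0.97 when an array was left out, an alternative added after seeing the data. Of the 11 defensins 0 passed as deposited, 3 after spike-in centring and 1 at a threshold of 0.10, alternatives also added after seeing the data. The 3 were PDF1.2, PDF1.2b and PDF2.5, all higher, as were 12.6% of all probe sets in that fit. The 1 at the threshold of 0.10 was PDF1.4, lower in OsRR6ox, and 673 of 22746 probe sets passed there. Fits without an array assume that the lone array of its genotype varies like the other genotype. The wild type values of PDF1.2 lay near the lowest 25% of probe sets, which limits what a ratio to them can show.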
